A study of Mus musculus with 25 samples.

Results

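The genes described here are 7 genes that mark or serve the somatotrophs, lactotrophs and thyrotrophs of the anterior pituitary, chosen by symbol: *Gh*, *Prl*, *Tshb*, *Pou1f1*, *Ghrhr*, *Trhr* and *Ghsr*. Of these, 6 are among the 15768 genes listed in either deposited table, and *Ghsr*, the ghrelin receptor gene, is listed in neither and has no value here. The 25 pituitaries and pituitary tumors came from sh*Rb* mice, which carry the rtTA transactivator at the broadly active *Rosa26* locus and, at *Col1a1*, a doxycycline (dox) responsive shRNA against *Rb1* linked to GFP. Dox in the drinking water switches the shRNA on, and removing it lets *Rb1* expression return. In the long-term experiment the RNA was enriched by poly(A) selection, and the groups were 6 weeks on dox (6w+dox, 3 females), 12 weeks on dox (12w+dox, 2 females and 2 males) and 6 weeks on dox followed by 6 weeks off (12w-res, 3 females and 2 males). In the short-term experiment ribosomal RNA was depleted instead, and the groups were 16 weeks on dox (16w +dox, 3 males) and 1, 3 or 5 days after dox was removed at that age of tumor (1d -dox, 4 females, 3d -dox, 3 males, and 5d -dox, 3 females).

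Every mouse carried both transgenes and had received dox as a young adult, so no group stands for a normal pituitary. The line derives from 1 embryonic stem cell clone, and rtTA at *Rosa26* is not restricted to the pituitary. The 2 experiments were normalized separately, so levels are compared only within an experiment. In the short-term experiment each group is of 1 sex, so time off dox and sex cannot be told apart between 1d or 5d -dox and 16w +dox.

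Anterior pituitary cells of the Pit-1 lineage share the transcription factor that *Pou1f1* encodes, Pit-1, which is required for somatotrophs, lactotrophs and thyrotrophs to form. Somatotrophs secrete growth hormone (*Gh*), lactotrophs prolactin (*Prl*) and thyrotrophs thyrotropin, whose specific beta subunit is encoded by *Tshb*. The hypothalamus drives growth hormone through the receptor *Ghrhr*, drives thyrotropin and prolactin through *Trhr*, and restrains prolactin through dopamine and its receptor *Drd2*, while loss of RB in mice is known above all for tumors of another pituitary lineage, the *Pomc*-producing melanotrophs.

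The shRNA target and the stretches in front of the hormone genes are shown because the first defines the model and Pit-1 is known to act on genes of this lineage from sites in front of them. The shRb5 target of 21 bases lies on chromosome 14 at 73206076-73206096 (GRCm38, minus strand), in exon 22 and within the coding sequence of *Rb1*, at positions 2399-2419 of transcript *Rb1*-201. Windows came from RefSeq (GRCm38.p6) and ran from 250 bases before to 50 bases after a start, for *Prl*, *Tshb*, *Pou1f1* and *Ghsr*, 4 of the 7 genes, in the table used here, and windows of *Gh*, *Ghrhr* and *Trhr* were not analysed here. Capitals mark TATNCAT or its reverse complement ATGNATA, the core of the Pit-1 site.
shRb5 target: gaggagtttgattccattata
*Prl*, chr13:27057320-27057619, plus strand: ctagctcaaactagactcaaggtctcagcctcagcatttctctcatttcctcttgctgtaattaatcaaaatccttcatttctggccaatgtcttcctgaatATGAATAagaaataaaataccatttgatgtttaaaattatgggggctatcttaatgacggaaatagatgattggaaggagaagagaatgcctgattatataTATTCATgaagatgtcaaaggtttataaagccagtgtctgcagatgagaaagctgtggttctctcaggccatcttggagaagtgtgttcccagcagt
*Pou1f1*, first of its listed starts, chr16:65520262-65520561, plus strand: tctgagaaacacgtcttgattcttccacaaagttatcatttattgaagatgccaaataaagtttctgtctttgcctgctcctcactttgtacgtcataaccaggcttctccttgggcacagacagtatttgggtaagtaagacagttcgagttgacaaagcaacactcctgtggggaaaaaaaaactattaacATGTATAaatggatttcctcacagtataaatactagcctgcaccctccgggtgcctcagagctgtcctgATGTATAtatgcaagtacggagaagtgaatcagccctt
*Tshb*, chr3:102782665-102782964, minus strand: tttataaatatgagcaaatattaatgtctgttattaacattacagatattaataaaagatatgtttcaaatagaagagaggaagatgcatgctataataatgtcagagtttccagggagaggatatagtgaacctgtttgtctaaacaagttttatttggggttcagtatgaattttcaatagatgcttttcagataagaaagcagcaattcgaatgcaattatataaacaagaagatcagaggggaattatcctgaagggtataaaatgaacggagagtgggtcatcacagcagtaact
The *Prl* window held 2 matches, at -148 and -47 from the start, and the first *Pou1f1* window also held 2, at -57 and 13. The windows of *Tshb*, whose listed start lies within the span of the gene in GENCODE, of *Ghsr* and of the other *Pou1f1* start held 0. Both forms were searched, which covers both strands. Of 32851 RefSeq windows of the same length, 8.84% held at least 1 match and 1.50% held 2 or more, and a match here describes the letters only.

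The genes lie on different chromosomes apart from *Tshb* and *Ghsr* (GRCm38.p6). *Gh* is at chr11:106300261-106303703 on the minus strand, *Prl* at chr13:27057570-27065204 on the plus strand, *Tshb* at chr3:102777398-102789082 on the minus strand and *Pou1f1* at chr16:65520512-65535018 on the plus strand. *Ghrhr* is at chr6:55376295-55388530, *Trhr* at chr15:44195924-44235912 and *Ghsr* at chr3:27371351-27379235, all on the plus strand. The sources do not say whether counting used strand, and in GENCODE vM21 the antisense gene *Gm47888* runs through *Prl*, *Tspan2* runs through *Tshb* on the other strand, and the lincRNA *Gm49631* shares 136 exon bases with *Pou1f1*. Neither *Gm47888* nor *Tspan2* shares an exon base with the gene it overlaps.

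Libraries held 19066053 to 28968476 reads on listed genes in the long-term experiment and 9573101 to 13036900 in the short-term one. *Rb1*, the target of the shRNA, lay at 1.86 to 5.09 FPM in the mice of 6w+dox, 2.42 to 4.05 FPM in those of 12w+dox and 16.1 to 20.3 FPM in those of 12w-res, in the direction of the labels. *Pomc*, the gene of the tumor lineage, took 12.9% to 43.2% of the gene reads of a long-term library. FPM, the unit of the deposited values, are reads on a gene scaled to a common depth with the authors' size factors. One library stood apart for the genes described here: the 12w+dox replicate 1 female had a summed level of the 6 genes of 12506 FPM. The other 12w+dox mice had 1154 to 2666, so results of the 6 genes that rest on this female are also given without it. Results of the related genes and cell type markers named below are given with all mice only. Adjusted p values come from limma on log2(FPM + 0.5) across all genes of an experiment and measure the spread between these mice, and a call needed both an adjusted p below 0.05 and a log2 fold change beyond 1 in either direction.

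The first comparison asked how tumor growth between 6 and 12 weeks of *Rb1* knock-down went with the genes of the Pit-1 lineage. All 6 genes with values were called lower at 12w+dox than at 6w+dox, in a comparison in which 4.04% of 15315 genes were called lower. The hormone genes *Gh* and *Prl* had the largest differences, 23.7-fold and 20.0-fold on the fitted scale, and the factor, the beta subunit and the releasing hormone receptor genes *Pou1f1*, *Tshb* and *Ghrhr* lay 6.91 to 7.42-fold lower. In bulk tissue, fewer cells of a type and less RNA per cell cannot be told apart.

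*Gh*, the somatotroph hormone gene, stood at 45882, 80113 and 50015 FPM in the 3 mice at 6w+dox and at 7478, 930, 2042 and 2317 FPM in the 4 mice at 12w+dox. Its share of all gene reads was 3.92% to 8.04% in the 6-week group and 0.110% to 0.944% in the 12-week group, without overlap. The log2 fold change was -4.57 ± 0.67 (SE, adjusted p = 6.9e-04, limma). *Prl*, the lactotroph hormone gene, stood at 10890, 11704 and 9172 FPM at 6w+dox and at 4940, 219, 214 and 332 FPM at 12w+dox. At 6w+dox the 3 mice were close together, while at 12w+dox the replicate 1 female lay far above the other 3 and still below every 6w+dox mouse. The log2 fold change of *Prl* was -4.32 ± 0.81 (adjusted p = 0.00295, limma). *Tshb*, the thyrotroph subunit gene, stood at 12.9, 65.6 and 43.5 FPM at 6w+dox and at 10.5, 0.904, 7.42 and 3.24 FPM at 12w+dox, with a log2 fold change of -2.87 ± 0.66 (adjusted p = 0.00833, limma).

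For the regulators the same female set the overlap between the groups. *Pou1f1* stood at 23.9, 79.6 and 122 FPM at 6w+dox and at 53.9, 1.28, 6.13 and 7.15 FPM at 12w+dox (log2 fold change -2.89 ± 0.85, adjusted p = 0.0265, limma). *Ghrhr*, the growth hormone releasing hormone receptor gene of somatotrophs, stood at 21.2, 57.5 and 110 FPM and then at 21.8, 2.36, 7.08 and 6.00 FPM (-2.79 ± 0.58, adjusted p = 0.00503, limma). *Trhr*, the thyrotropin releasing hormone receptor gene of thyrotrophs and lactotrophs, was the lowest of the 6, with 1.28, 2.23 and 3.27 FPM and then 1.57, 0.0874, 0.370 and 0.531 FPM (-1.37 ± 0.38, adjusted p = 0.0214, limma). In each of these 3 genes the replicate 1 female at 12w+dox lay above the lowest 6w+dox mouse and the other 3 lay below it.

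Without a test, the groups stood apart in 3 of 6 genes, *Gh*, *Prl* and *Tshb*, against 12.4% of all genes that were lower without overlap, and without the replicate 1 female at 12w+dox they did not overlap in 6 of 6, against 16.3% of all genes. That mouse was singled out by its high level of these same genes, so the count without it is a description and no support. The 16.3% is not an equal measure, since no mouse was chosen on the other genes. The count of 6 called was 4 by edgeR and by DESeq2 on the recovered reads, and 3 without the 6w+dox replicate 2 mouse, where *Tshb*, *Pou1f1* and *Trhr* lost their call. *Pou1f1* was the least firm of the 6: leaving out any one of 5 of the 7 mice ended its call, with adjusted p of 0.0545 to 0.0993 (limma), and edgeR and DESeq2 gave adjusted p of 0.0910 and 0.104. For *Prl* the size of the change rested on the replicate 1 female, with a log2 fold change of -5.40 without this mouse and of -2.90 by edgeR, which compares mean levels (adjusted p = 0.0311). DESeq2 gave no adjusted p for *Prl*. The 6w+dox mice were all female, and among the females alone, 2 against 3, *Gh* was the gene still called, with 930 and 7478 FPM at 12w+dox.

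**Figure D1:**
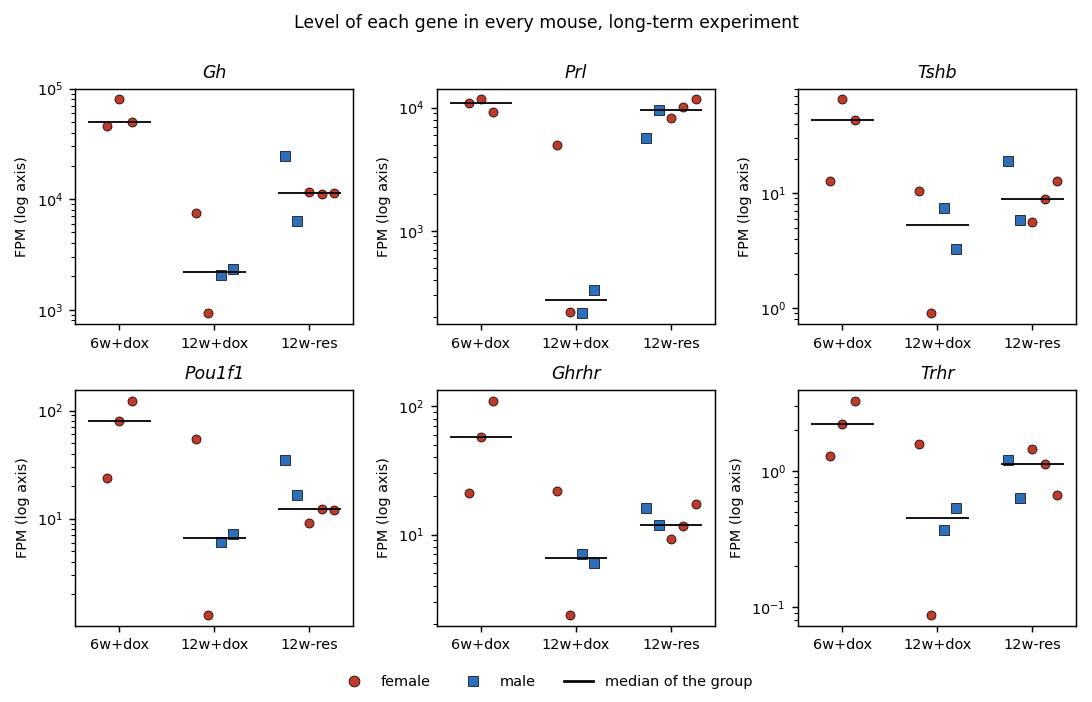
FPM of 6 genes of the Pit-1 lineage in every mouse of the long-term experiment, on a log axis, by group (x axis), with circles for females, squares for males and a line at the median of each group. Every gene has its highest mouse at 6w+dox, with *Prl* in 12w-res close to it, and 1 female at 12w+dox lies above the other 3 mice of that group in every panel.

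The second comparison asked what followed when *Rb1* was restored for 6 weeks after 6 weeks of knock-down, against continued knock-down to the same time. Of the 6 genes, 2 were called higher in 12w-res than at 12w+dox, where 6.24% of all genes were called higher: *Prl* by 16.7-fold and *Gh* by 4.95-fold on the fitted scale. *Tshb*, *Pou1f1*, *Ghrhr* and *Trhr* were not called, with log2 fold changes of 1.10, 0.90, 0.84 and 0.53. This comparison and the first share the 12w+dox mice.

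*Prl* stood at 5659, 9662, 8245, 10053 and 11697 FPM in the 5 mice of 12w-res, all above the highest 12w+dox mouse. It was the only one of the 6 genes whose groups did not overlap, and this count is near the 17.1% of all genes that were higher without overlap. The log2 fold change was 4.06 ± 0.71 (adjusted p = 6.1e-04, limma), 5.14 without the 12w+dox replicate 1 female and 2.68 by edgeR (adjusted p = 0.0200). Females had 8245 to 11697 FPM in 12w-res against 219 to 4940 at 12w+dox, and males 5659 to 9662 against 214 to 332. In a fit of the females alone, 3 against 2, neither *Prl* (log2 fold change 3.25, adjusted p = 0.0620) nor *Gh* (2.11, adjusted p = 0.196, limma) was called.

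*Gh* stood at 24746, 6381, 11630, 11098 and 11471 FPM in 12w-res, so that 4 of the 5 mice lay above every 12w+dox mouse and 1 male lay below the 12w+dox replicate 1 female. The log2 fold change was 2.31 ± 0.59 (adjusted p = 0.00703, limma). *Gh* took 0.551% to 2.01% of gene reads in 12w-res. The 3 females were within 11098 to 11630 FPM, while the 2 males were the highest and the lowest of the group. The high male, replicate 1, also had the highest *Tshb* and *Pou1f1* of 12w-res and the highest summed level of gonadotroph markers, 1897 FPM.

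*Tshb* stood at 19.2, 5.81, 5.60, 8.97 and 12.8 FPM in 12w-res (log2 fold change 1.10 ± 0.58, adjusted p = 0.148, limma). *Pou1f1* stood at 34.7, 16.6, 9.15, 12.2 and 12.0 FPM (0.90 ± 0.75, adjusted p = 0.366, limma), and its mean, 16.9 FPM, was next to that of 17.1 FPM at 12w+dox. The 12w+dox mean rested on the replicate 1 female: without this mouse the *Pou1f1* difference was 1.80 (adjusted p = 0.0234, limma) and the *Ghrhr* difference 1.36 (adjusted p = 0.0258), and both were then called, so that 4 of 6 genes were. *Ghrhr* stood at 16.2, 11.9, 9.15, 11.6 and 17.2 FPM (0.84 ± 0.51, adjusted p = 0.207, limma) and *Trhr* at 1.20, 0.634, 1.46, 1.12 and 0.663 FPM (0.53 ± 0.34, adjusted p = 0.225). Without the replicate 1 female the groups did not overlap in 5 of 6 genes, *Tshb* being the exception, against 21.1% of all genes. Since this mouse was singled out by its level of these same genes, the calls and gaps gained without it are a description and no support. The difference between the sexes in this comparison was tested as an interaction across all genes, and the adjusted p was 0.999 for each of the 6 genes (limma). The estimates, female minus male, were imprecise, from -1.56 ± 1.50 (SE) for *Pou1f1* and -1.55 ± 1.38 for *Prl* to 0.19 ± 1.13 for *Tshb*. With 2 or 3 mice of a sex in a group, this test could neither show nor exclude a difference of that size.

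The third comparison set 12w-res against 6w+dox, the stage at which dox had been removed. Of the 6 genes, 3 were called lower in 12w-res, *Gh* by 4.80-fold, *Ghrhr* by 3.87-fold and *Tshb* by 3.42-fold, where 5.82% of all genes were called lower. *Prl* differed least, with a log2 fold change of -0.26 ± 0.78 (adjusted p = 0.823, limma): 2 of the 3 values at 6w+dox fell inside its 12w-res range of 5659 to 11697 FPM and the other was 11704 FPM. With sex as a covariate the *Prl* difference was 0.19, and the 6w+dox mice were all female. This comparison shares mice with both others.

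For *Gh* the log2 fold change was -2.26 ± 0.64 (adjusted p = 0.0143, limma), for *Ghrhr* -1.95 ± 0.55 (adjusted p = 0.0142) and for *Tshb* -1.77 ± 0.63 (adjusted p = 0.0421). *Pou1f1* and *Trhr* missed the threshold, with -1.99 ± 0.81 (adjusted p = 0.0734) and -0.83 ± 0.37 (adjusted p = 0.0936, limma). The groups did not overlap in 2 of 6 genes, *Gh* and *Ghrhr*, where 15.9% of all genes were lower without overlap. The count of 3 called was 0 without the 6w+dox replicate 2 mouse and 1 without replicate 3, the pair of mice with the highest *Pou1f1*, *Ghrhr* and *Trhr* of the experiment, and it was 4 without replicate 1. Among the females alone, 3 against 3, 0 of the 3 calls remained, with log2 fold changes of -2.32, -2.02 and -1.89 for *Gh*, *Ghrhr* and *Tshb* (adjusted p = 0.0882, 0.0674 and 0.0903, limma). *Tshb* lost its call without any one of 6 of the 8 mice compared, with adjusted p from 0.0532 to 0.202.

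**Figure D2:**
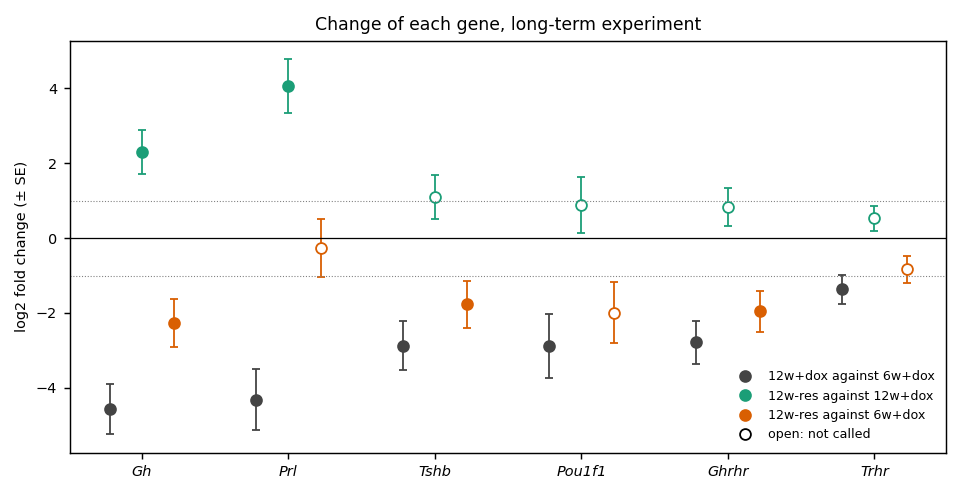
Log2 fold change with its standard error (y axis) of each gene (x axis) in the 3 long-term comparisons, filled where called and open where not, with dotted lines at the minimum fold change. The first comparison lies below 0 for all 6 genes, with *Gh* at -4.57, and *Prl* is the gene whose 12w-res level is nearest to that at 6w+dox, at -0.26.

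Levels of different genes are compared per kilobase of the longest coding transcript. At 6w+dox *Gh* averaged 68063 FPM per kb and *Prl* 11831, with no overlap between them, and *Tshb*, *Pou1f1* and *Ghrhr* averaged 67.2, 42.5 and 40.5 FPM per kb with ranges that overlapped. *Trhr* averaged 0.626 FPM per kb, below every mouse of the other 5 genes. In 12w-res *Gh* averaged 15157 and *Prl* 10126 FPM per kb, and their ranges, 7402 to 28707 and 6323 to 13069, overlapped.

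Ratios within a mouse were tested, as ratios of FPM + 0.5, for *Gh*, *Prl* and *Tshb* to *Pou1f1* and for *Prl* to *Gh*. *Prl* to *Gh* ran from 0.146 to 0.237 in the 6w+dox mice, from 0.105 to 0.661 in the 12w+dox mice and from 0.229 to 1.51 in the 12w-res mice, with medians of 0.183, 0.184 and 0.906. The 12w-res mean was 4.01-fold above that at 6w+dox, with an exact two-sided permutation p of 0.0536 where the smallest possible is 0.0179. The 12w-res ratios of 4 mice lay above every 6w+dox mouse and 1 male lay among them. *Prl* to *Pou1f1* was 8.97-fold higher in 12w-res than at 12w+dox, with 161 to 932 against 32.3 to 123 and no overlap (exact permutation p = 0.0159). After Benjamini-Hochberg adjustment over the 20 ratio tests of both experiments the lowest adjusted p was 0.238, so that the ratios were not shown to change (exact permutation tests). The smallest p that these tests could give was 0.00794 to 0.1, depending on the comparison. A single changed ratio among the 20 therefore could not have passed 0.05, so the result does not show that the ratios stayed the same. *Tshb* to *Pou1f1* had group medians of 0.548, 0.620 and 0.632 in the order of these 3 groups.

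**Figure D3:**
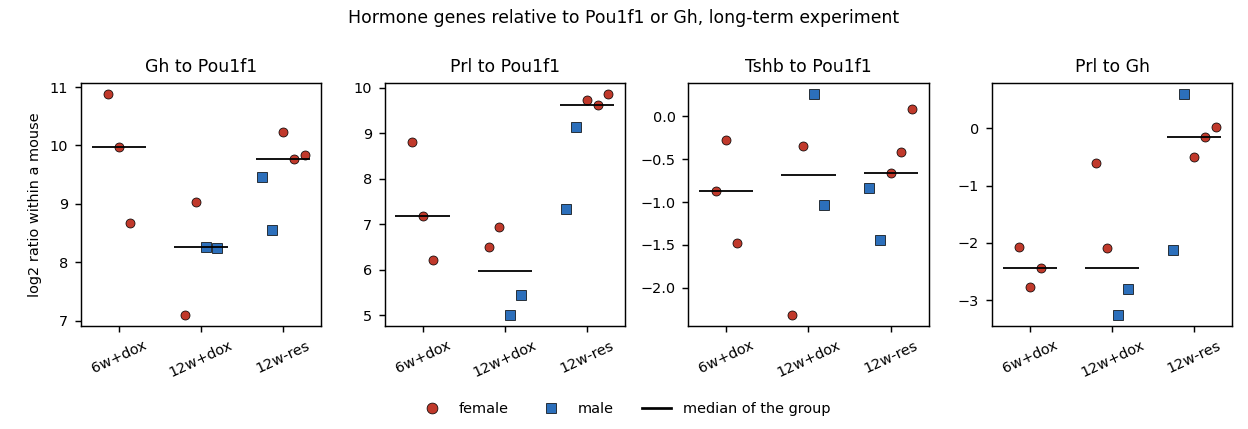
Log2 ratio of FPM + 0.5 within each mouse (y axes) for *Gh*, *Prl* and *Tshb* to *Pou1f1* and for *Prl* to *Gh*, by long-term group (x axis), with circles for females, squares for males and a line at the group median. The *Prl* to *Pou1f1* ratios of the 5 mice of 12w-res lie above all 4 at 12w+dox, while the *Tshb* to *Pou1f1* medians lie close together.

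The 6 genes varied together over the 12 long-term mice. In log2(FPM + 0.5), the highest Pearson r was 0.95, between *Pou1f1* and *Ghrhr*, and the lowest was 0.66, between *Prl* and *Tshb*, and *Tshb* with *Ghrhr* reached 0.94. The mice share their groups and the library scaling, so these values describe the 12 mice and are given with no test. Over the 13 short-term mice *Pou1f1* and *Ghrhr* again had the highest r, 0.94.

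Among 11355 other genes with a mean of at least 5 FPM, those whose pattern over the 12 mice was most like that of *Gh* were *Aldh1a2*, *App* and *Efnb2*, with r of 0.98, 0.96 and 0.96, and over the 13 short-term mice their r was 0.74, 0.59 and 0.67. *Aldh1a2* is also among the stem and folliculostellate markers counted below, so a likeness to *Gh* does not place a gene in somatotrophs. Most like *Prl* were *Rab3c*, *Plat* and *Arhgap27*, with r of 0.97, 0.96 and 0.96, and 0.83, 0.42 and 0.69 in the short-term mice. Most like *Tshb* were *Shb*, *Nfkbia* and *Gpc4*, with r of 0.95, 0.94 and 0.91. In the short-term mice *Shb* and *Nfkbia* had r of 0.81 and 0.34 with *Tshb*.

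Of 10 other products of these cells, 4 were called lower at 12w+dox than at 6w+dox and 0 higher, with a median log2 fold change of -0.92 against -0.01 over all genes. Their summed level was 1132 FPM in the 12w+dox replicate 1 female and 150 to 533 FPM in the other mice of that group. How far the calls rest on this female was not tested. *Cga*, the alpha subunit shared by thyrotropin and the gonadotropins, went from 1412 ± 85.7 FPM (SD, 3 mice) to 266 ± 180 FPM (SD, 4 mice), with a log2 fold change of -2.86 ± 0.76 (SE). *Dlk1*, a membrane protein found in somatotrophs, went from 674 ± 250 to 153 ± 222 FPM (-3.09 ± 0.75), and *Pappa2*, a protease that cleaves IGF binding proteins, and *Rbp4*, a retinol carrier, had -2.24 ± 0.49 and -1.07 ± 0.34. In 12w-res against 12w+dox 3 were called higher, *Nmb* by 3.64 ± 0.43, *Rbp4* by 2.29 ± 0.30 and *Pappa2* by 1.22 ± 0.43, and *Dio2*, the deiodinase that makes active thyroid hormone, was called lower by -1.37 ± 0.27. *Nmb*, the gene of the peptide neuromedin B, averaged 65.9 FPM in 12w-res against 8.81 and 6.56 FPM in the 6w+dox and 12w+dox mice, so that it and *Rbp4* were also called higher than at 6w+dox, by 2.86 and 1.22, and 0 of the 10 were called lower there.

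Of 7 releasing and inhibiting factors, *Gal* (galanin) alone had values. In 12w-res it averaged 45.7 ± 14.8 FPM (SD, 5 mice), against 2.68 ± 1.52 FPM in the 4 mice of 12w+dox and 1.70 ± 0.505 FPM in the 3 of 6w+dox, and was called higher in both comparisons, by 3.95 ± 0.33 and 4.37 ± 0.35 (SE) on the log2 scale. Of 14 inhibitory and modulating receptors with values, 3 were called lower at 12w+dox than at 6w+dox and 1 higher, where 3.15% of all genes were called higher. The somatostatin receptor genes *Sstr3* and *Sstr5* and the thyroid hormone receptor gene *Thrb*, which carries feedback on thyrotropin, had -2.02 ± 0.35, -1.64 ± 0.48 and -1.57 ± 0.31. *Drd2*, the dopamine receptor gene, which melanotrophs also express, went from 225 ± 25.3 to 571 ± 118 FPM (1.32 ± 0.18). In 12w-res, *Sstr1* was called lower than at 12w+dox (-1.32 ± 0.34), where 5.04% of all genes were called lower, and *Sstr3*, *Thrb*, *Sstr2* and *Sstr1* were called lower than at 6w+dox, by -2.51, -1.49, -1.25 and -1.16.

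Among the transcription factors of the lineage, *Neurod1* (-1.84 ± 0.49) was called lower at 12w+dox than at 6w+dox, and *Tef*, a factor first known from thyrotrophs, was called higher (1.10 ± 0.12). *Tef* and *Neurod4* were called lower in 12w-res than at 12w+dox, by -1.63 ± 0.11 and -1.45 ± 0.42, and *Neurod4* and *Neurod1* were called lower than at 6w+dox, by -2.41 and -1.94. Of 12 genes of growth hormone and prolactin signalling, *Cish*, which STAT5 induces, was called lower at 12w+dox than at 6w+dox (-1.01 ± 0.34). In 12w-res the prolactin receptor gene *Prlr* averaged 60.2 ± 9.85 FPM (SD, 5 mice), against 22.6 ± 8.15 FPM in the 12w+dox mice and 18.1 ± 7.96 FPM in the 6w+dox mice, and was called higher in both comparisons. *Igfbp3*, an IGF binding protein, was called higher by 2.02 and 1.45, and *Igf1* was called higher than at 12w+dox, by 1.05. In 12w-res against 6w+dox 5.81% of all genes were called higher.

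**Figure D4:**
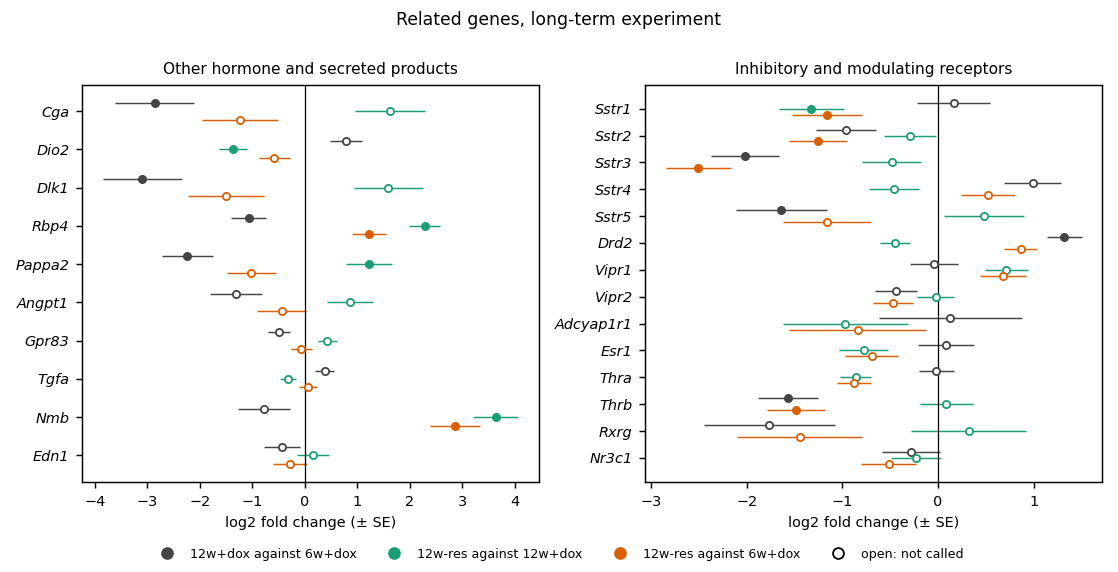
Log2 fold change with its standard error (x axis) of other products of somatotrophs, lactotrophs and thyrotrophs (left) and of receptors that inhibit or modulate them (right) in the 3 long-term comparisons, filled where called. *Nmb* lies at 3.64 and 2.86 in the comparisons of 12w-res, *Cga* and *Dlk1* are called in the first comparison alone, and *Drd2* is the receptor called higher, at 1.32.

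Markers of other cell types moved in the same libraries. From 6w+dox to 12w+dox, 4 of 4 neural lobe markers, 3 of 4 fibroblast, 2 of 4 endothelial and 3 of 5 stem and folliculostellate markers were called lower, and 1 of 5 melanotroph and corticotroph markers was called higher. The summed neural lobe level was lower, from 37.9 to 120 FPM in the 6w+dox mice to 2.94 to 5.55 FPM in the 12w+dox mice, and was 3.33 to 6.08 FPM in 12w-res. In the same order the endothelial sum was 155 to 203, 47.6 to 101 and 157 to 214 FPM, and the fibroblast sum 80.6 to 133, 28.5 to 117 and 189 to 457 FPM. In 12w-res against 12w+dox 4 of 4 endothelial, 4 of 4 fibroblast and 3 of 5 stem and folliculostellate markers were called higher, and so were 2 of 5 melanotroph and corticotroph markers. Against 6w+dox, 4 of 4 neural lobe and 1 of 5 stem and folliculostellate markers were called lower in 12w-res. There 2 of 5 melanotroph and corticotroph and 1 of 4 fibroblast markers were called higher, and 0 of 4 endothelial markers were called. Of the 4 gonadotroph and 5 immune markers 0 were called in the 3 comparisons (limma), and the gonadotroph sums were 509 to 679, 24.3 to 745 and 85.7 to 1897 FPM. The summed level of *Pomc* and 4 further melanotroph and corticotroph markers was 109509 to 381210, 96002 to 198293 and 458751 to 581045 FPM. The 12w+dox replicate 1 female had the highest endothelial and neural lobe sums of its group, 101 and 5.55 FPM, and a gonadotroph sum of 130 FPM, below both males. None of these markers was at 0 in a whole group, and the part that these cells had in the results was not tested.

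The short-term comparisons asked what changed in the first days after dox removal in tumors of 16 weeks. *Rb1* averaged 4.19 FPM at 16w +dox and 4.46, 5.01 and 5.12 FPM at 1d, 3d and 5d -dox. *GFP*, which is linked to the shRNA, averaged 1246.5, 606, 122 and 11.7 FPM in the same order. The authors reported no significant rise of *Rb1* mRNA at these times, so these comparisons describe dox removal and not restored *Rb1*. None of the 6 genes was called in any of the 4 comparisons (limma). At 1d -dox against 16w +dox 0.043% of 13958 genes were called, and at 3d, 5d and between 5d and 1d -dox 0.129%, 0.193% and 0.0143% were. An unadjusted p under 0.05 was reached by 3 of the 6 genes at 1d, where 13.1% of all genes reached it, and by 1 of 6 at 3d, where 16.6% did. At 5d it was reached by 2 of 6, where 13.5% of all genes did, and between 5d and 1d by 0 of 6, where 6.33% did. By edgeR and DESeq2 on the recovered reads the count of the 6 genes called was 0 in all 4. The 1d, 3d and 5d comparisons share the 16w +dox mice.

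*Gh* stood at 175, 85.4 and 161 FPM at 16w +dox, at 84.8, 29.0, 17.6 and 75.8 FPM at 1d -dox, at 387, 125 and 696 FPM at 3d -dox and at 29.9, 16.6 and 78.7 FPM at 5d -dox. Every mouse at 1d and 5d -dox lay below every 16w +dox mouse, and 2 of 3 mice at 3d -dox lay above them. The log2 fold changes against 16w +dox were -1.64 ± 0.64 (adjusted p = 0.286), 1.26 ± 0.68 (adjusted p = 0.366) and -1.96 ± 0.68 (adjusted p = 0.229, limma) at 1d, 3d and 5d. *Gh* took 0.00571% to 0.292% of the gene reads of these libraries. *Prl* stood at 7.26, 93.5 and 12.7 FPM at 16w +dox, a wider range than in any other short-term group, at 3.29 to 23.8 FPM at 1d, 9.04 to 67.9 at 3d and 6.47 to 23.7 at 5d -dox, and the groups overlapped in all 4 comparisons.

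*Pou1f1* stood at 0.849, 4.25 and 0.740 FPM at 16w +dox, at 0.0499 to 0.538 FPM at 1d, at 2.87, 0.979 and 9.18 FPM at 3d and at 0.208 to 0.533 FPM at 5d -dox. Its log2 fold change at 1d was -1.50 ± 0.53 (adjusted p = 0.251, limma), and at 5d -1.19 ± 0.57 (adjusted p = 0.383). *Ghrhr* stood at 0.674, 1.31 and 0.485 FPM at 16w +dox and at no more than 0.253 FPM at 1d and 5d -dox, with 1.30, 0.122 and 2.94 FPM at 3d. *Gh*, *Pou1f1* and *Ghrhr* were thus lower without overlap at 1d, where 5.60% of all genes were, and at 5d, where 9.64% were. These genes rested on few reads, with 0 to 159 reads of *Pou1f1* or *Ghrhr* in the libraries other than 3d -dox. *Ghrhr* passed the read minimum through 16w +dox and 3d -dox alone, and *Pou1f1* did not pass it at 1d -dox. Their part in these counts is therefore a description. The unadjusted p of *Ghrhr* at 1d and 5d and of *Pou1f1* at 1d, counted above, are no support either.

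*Tshb* was near the limit of these libraries, with 7, 21 and 2 reads at 16w +dox, 0 to 21 at 1d and 0 to 28 at 5d -dox, and 63, 38 and 124 reads at 3d -dox. A count of 0, seen in 1 mouse at 1d and 1 at 5d, allows up to 3 reads, and the limit covers counting error only. At 3d -dox *Tshb* was 1.37, 0.775 and 2.55 FPM, all above the 0.0510 to 0.561 FPM at 16w +dox. *Trhr* had 0 to 11 reads in 12 of the 13 mice and 57 in 1 mouse at 3d -dox. *Tshb* and *Trhr* passed the minimum of 10 reads through the 3d -dox group alone, the group in which their levels were highest, so their 3d values are a description and their p there, including the 1 unadjusted p of *Tshb* counted above, is no support.

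In the 13 short-term mice each of the 6 males lay above each of the 7 females for *Gh*, with 85.4 to 696 against 16.6 to 84.8 FPM, and for *Pou1f1*, with 0.740 to 9.18 against 0.0499 to 0.538 FPM. Of all 13958 genes 1.25% did so, and the split was noticed after the values were seen and is given with no test. *Lhb*, the luteinizing hormone subunit gene of gonadotrophs, also chosen after the values were seen, averaged 4.23 and 17.7 FPM in the male groups at 16w +dox and 3d -dox and 0.242 and 0.204 FPM in the female groups at 1d and 5d -dox, and was called in each comparison with 16w +dox. The gonadotroph sum was 12.7 to 92.3 FPM in the males and 0.825 to 2.48 FPM in the females. The endothelial sum was 16.6 to 24.2 FPM at 16w +dox, 8.77 to 11.8 at 1d, 15.3 to 29.0 at 3d and 6.92 to 10.2 at 5d -dox, and the fibroblast sum was lower without overlap at 1d and 5d as well. The melanotroph and corticotroph sum was 35280 to 38080 FPM at 16w +dox and 12469 to 28943 FPM at 3d -dox. The part of these cells in the short-term values was not tested. Of the genes of the lists, *Sstr1* was called higher at 3d -dox, by 1.53 ± 0.23. *Cdh5*, 1 of the endothelial markers, was called lower at 1d and 5d -dox than at 16w +dox, by -1.10 ± 0.18 and -1.22 ± 0.20.

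**Figure D5:**
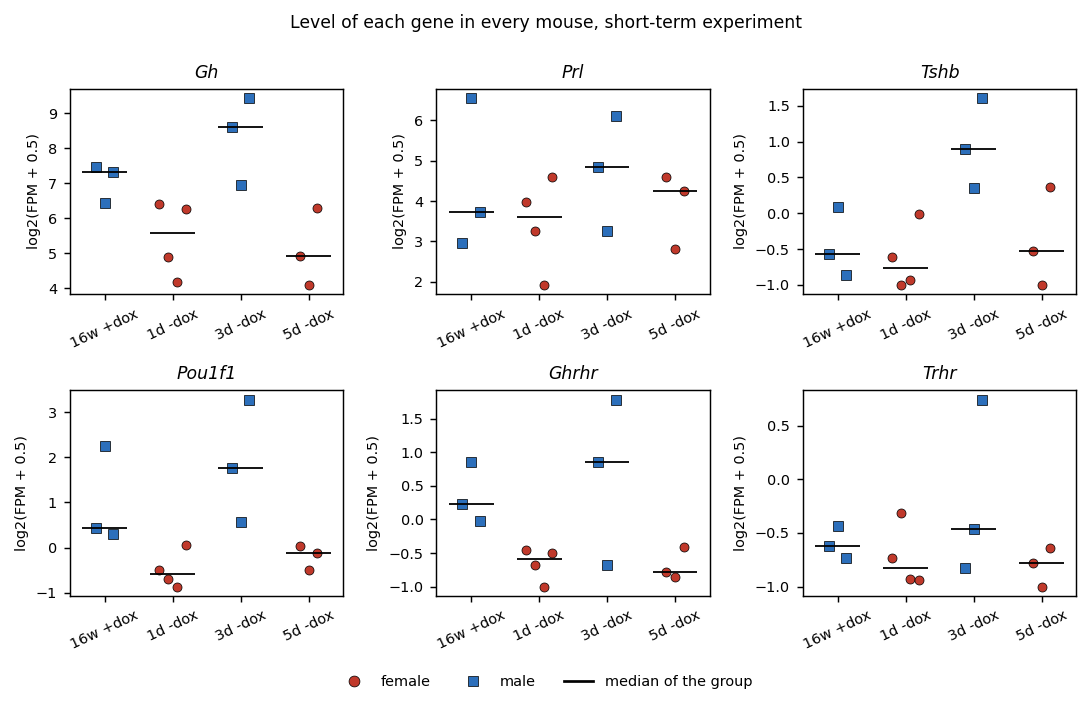
Log2(FPM + 0.5) of the 6 genes (y axes) in every mouse of the short-term experiment by group (x axis), with circles for females, squares for males and a line at the group median. The male groups, 16w +dox and 3d -dox, lie above the female groups for *Gh* and *Pou1f1*, and the 3 mice at 3d -dox spread widely, from 125 to 696 FPM for *Gh*.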

How the data were processed

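RNA was sequenced from 12 pituitaries in the long-term and 13 in the short-term experiment. The deposited signal values (FPM) are reads per gene that the authors divided by DESeq2 size factors and scaled to a common depth, after mapping with STAR to mm10 and keeping RefSeq genes with at least 10 reads in over 50% of the samples of a condition. The counting tool and its strand setting are not given in the sources used here. Every value came out as whole reads, in 100% of cases within 0.1 read, and these recovered reads served for edgeR and DESeq2. Lines that name no gene, 68.8% to 75.0% of the short-term reads, were left out of totals and tests, and 0 columns of per-sample values were unused.

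Groups came from the sample labels. Genes with at least 10 reads in over 50% of the mice of 1 condition were tested with limma 3.58.1 (trended prior variance, R 4.3.3) on log2(FPM + 0.5), all groups of an experiment in 1 fit, with Benjamini-Hochberg adjustment over all genes tested. Ratios within a mouse were compared with exact two-sided permutation tests. Alternatives were edgeR 4.0.16, DESeq2 1.42.0, pseudocounts of 0.1 and 1, other scalings and filters, only the groups compared, a replicate block, sex as a covariate, females only and each mouse left out, and, added after seeing the data, a constant prior variance. On simulated data, limma, edgeR and DESeq2 each recovered 200 of 200 changed genes for 12w+dox against 6w+dox (15315 genes) and for 1d -dox against 16w +dox (13958 genes). They also called 1, 1 and 6 unchanged genes in the first of these, and 0, 1 and 0 in the second. The changed genes were drawn from those with a mean of at least 5 FPM and moved by 2 on the log2 scale. The spread between mice followed the trend fitted over all genes, so genes that spread more widely than this trend were not simulated. For the 6 genes described here, the SD of log2(FPM + 0.5) at 12w+dox ran from 0.759 for *Trhr* to 2.17 for *Prl*. Changes in genes at lower levels, such as *Trhr*, and groups with 1 mouse apart were not simulated, so recovery there is not known.

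The genes and lists were chosen with earlier results of these data known. Named from the lists are the genes called in a comparison, at most 4 per list and comparison by absolute log2 fold change, and for *Gh*, *Prl* and *Tshb* the 3 genes with the highest Pearson r over the long-term mice. One gene of the transcription factor list is not reported here. Positions, transcript lengths and overlaps are from GENCODE vM21 and RefSeq on GRCm38. Mice of 1 group differed by more than counting noise, with chi-square per degree of freedom of 3.93 or more. The limit for a count of 0 was set at 3 reads.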

Additional observations from a re-analysis of the deposited data

Results flagged for a closer look

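*Prl* in the 12w+dox replicate 1 female, at 4940 FPM, lay apart from the other 3 mice of its group. On the log2 scale of the limma tests, its gap to the next mouse made up 0.860 of the range of the group. This was above Dixon's critical value for 4 samples. *Prl* at 12w+dox was 1 of 18 combinations of gene and group tested, and chance marks about 5% of such groups. The same mouse was the highest of its group for the other 5 genes, which did not pass this limit on the log2 scale. The limit was not applied to untransformed FPM.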

How the results depend on the processing

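Over 7 comparisons, the number of genes called stayed within 1.5 times of that reported in 138 of 147 alternatives. The counts that went beyond this were all of long-term comparisons, while in the short-term ones 0 genes were called to begin with. Of values of single genes 781 of 856, and of ratios 168 of 200, kept their direction and their side of the threshold. The cause of the changes below was not tested. In females only, where groups held 2 or 3 mice, 1 gene was called at 12w+dox against 6w+dox, 0 in 12w-res against 12w+dox and 0 against 6w+dox. DESeq2 called 1 gene in 12w-res against 12w+dox, since it gave no adjusted p for *Prl*, and put *Pou1f1* there at -0.016. The replicate numbers shared between groups did not pair mice (correlations of deviations from -0.165 to 0.237 over 10 long-term pairs of groups and from -0.208 to 0.168 over 18 short-term pairs), and with a replicate block 4, 2 and 0 genes were called in the 3 long-term comparisons in the order of the text and *Ghrhr* was 0.031 at 5d against 1d -dox. Scaling by totals of reads moved the median of all genes to 0.29, -0.61 and -0.33 in the long-term comparisons, and moved no gene described here by more than 0.23 relative to it, with 6, 2 and 4 called.

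With sex as a covariate *Prl* in 12w-res against 6w+dox was 0.19. *Prl* at 3d -dox against 16w +dox was -0.098 by edgeR and -0.11 by DESeq2. With a pseudocount of 0.1 *Tshb* at 5d -dox against 16w +dox was -0.020, the log2 ratio of *Tshb* to *Pou1f1* at 12w+dox against 6w+dox differed by -0.030, and that of *Prl* to *Pou1f1* at 5d against 1d -dox by -0.25. In females only the *Tshb* to *Pou1f1* difference at 12w+dox against 6w+dox was -0.45 and that of *Gh* to *Pou1f1* in 12w-res against 6w+dox was 0.11.

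Leaving out each mouse gave 3 to 6 genes called at 12w+dox against 6w+dox, 2 to 4 in 12w-res against 12w+dox and 0 to 4 in 12w-res against 6w+dox. The log2 fold changes that changed sign were uncalled. They ran, at 1d against 16w, from -0.40 to 0.075 for *Tshb* and -1.70 to 0.10 for *Prl*; at 3d, from -0.048 to 0.73 for *Trhr*, -0.27 to 0.96 for *Ghrhr* and -0.41 to 1.39 for *Prl*. At 5d against 16w they ran from -0.31 to 0.37 for *Tshb* and -1.26 to 0.54 for *Prl*. At 5d against 1d they ran from -0.12 to 0.56 for *Tshb*, -0.16 to 0.058 for *Trhr*, -0.16 to 0.065 for *Ghrhr*, -0.92 to 0.18 for *Gh* and -0.066 to 0.98 for *Prl*. Differences in log2 ratio at 12w+dox against 6w+dox ran from -0.35 to 0.50 for *Tshb* to *Pou1f1* and -0.28 to 0.60 for *Prl* to *Gh*, and in 12w-res against 12w+dox from -0.28 to 0.58 for *Tshb* to *Pou1f1*. In 12w-res against 6w+dox they ran from -0.85 to 0.25 for *Gh* to *Pou1f1* and -0.082 to 0.52 for *Tshb* to *Pou1f1*. At 3d -dox they ran from -0.55 to 0.87 for *Gh* to *Pou1f1* and -1.86 to 0.45 for *Prl* to *Gh*, and at 5d against 1d from -0.25 to 0.51 for *Prl* to *Pou1f1* and -0.40 to 0.13 for *Tshb* to *Pou1f1*. Read depth limited *Tshb*, *Trhr*, *Pou1f1* and *Ghrhr* in the short-term libraries.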
